A study of Homo sapiens with 12 samples.

Results

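The 10 genes described here encode cytosolic heat shock proteins and their helpers, and they were followed in 2 leukemia lines, THP-1 and U-937, that received honokiol or its solvent. They are FKBP4, HSP90AA1, HSP90AB1, HSPA1A, HSPA1B, HSPA8, HSPH1, DNAJB1, BAG3 and STIP1, 10 of the 36866 genes in the table, and they were chosen by name as a family and because FKBP4 had responded to honokiol in opposite directions in the 2 lines. The FKBP4 values are therefore a description and carry no test, and counts of genes that passed a test are given over the other 9. Honokiol is a phenolic compound of magnolia bark. The 12 poly(A) mRNA libraries, 3 in each group of line and treatment, were made after 24 h with honokiol or with 0.1% DMSO, the solvent control. Both lines are labelled acute myeloid leukemia with a complex karyotype, and both were grown in the same medium with serum. The labels give honokiol doses of 20 and 35 µM without saying which line received which, so a difference between the lines cannot be told apart from a difference in dose. A difference between the lines is one between these 2 established cell lines. The labels do not say whether the 3 libraries of a group came from separate cultures, so p-values measure only the spread between these libraries.

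HSP90 is a dimeric ATP-driven chaperone that holds nearly folded client proteins, among them kinases and steroid receptors. Clients reach it from HSP70, which binds unfolded stretches with the help of J proteins such as DNAJB1 and releases them with exchange factors such as HSPH1 and BAG3. STIP1 bridges HSP70 and HSP90, and FKBP4, a peptidyl-prolyl isomerase also known as FKBP52, joins the late complex of HSP90 with steroid receptors. Stress that unfolds proteins releases heat shock factor 1 (HSF1), which binds heat shock elements in the promoters of many of these genes and raises their mRNA.

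Levels are given in FPKM, fragments per unit of transcript length and of library size, a scale on which genes of different length can be compared. Responses are log2 fold changes of honokiol against DMSO with their standard error (SE), fitted to the deposited estimated counts by edgeR, with p-values adjusted over all genes tested by the Benjamini-Hochberg method. Library totals were 57406966 to 75065752 counts, and since a fragment was mostly worth 4 counts the libraries hold about 14351742 to 18766438 fragments. In replicate 1 of both DMSO groups mitochondrially encoded genes took 13.7% (THP-1) and 12.6% (U-937) of the counts, against 5.61% to 7.55% in the other libraries, and the responses of the 10 genes are given with and without them. All 10 myeloid markers looked up were in the table, with summed levels of 653.58 to 841.25 FPKM in THP-1 and 589.83 to 914.38 FPKM in U-937 cells with DMSO. With honokiol the sums were 674.58 to 741.48 FPKM in THP-1 and 505.15 to 588.03 FPKM in U-937, the latter below the DMSO range. MPO, a granule enzyme of myeloid cells, was near 0 in U-937 cells. The sums of the 10 markers of other cell types found, of 14, were 15.34 to 53.65 FPKM, mostly PECAM1, and markers of T cells (CD3E), fibroblasts (COL3A1) and epithelium (EPCAM) were at or near 0. In these bulk libraries fewer cells with an mRNA and less of it per cell cannot be told apart.

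FKBP4 (ENSG00000004478) lies on the plus strand at chr12:2794970-2805423 (GRCh38). In THP-1 cells its level was 27.9, 30.9 and 32.8 FPKM with DMSO and 39.4, 38.1 and 41.4 FPKM with honokiol. In U-937 cells it was 49.8, 63.5 and 60.2 FPKM with DMSO and 39.8, 37.2 and 34.8 FPKM with honokiol. The 3 honokiol libraries thus lay above all DMSO libraries in THP-1 and below all of them in U-937. The group means were 30.5 ± 2.49 and 39.6 ± 1.63 FPKM in THP-1 and 57.8 ± 7.14 and 37.3 ± 2.47 FPKM in U-937 (SD, n = 3), so that the honokiol groups of the lines lay close together while the DMSO groups did not. The log2 fold change was 0.32 (SE 0.11) in THP-1 and -0.72 (SE 0.13), or 39.3% lower, in U-937, and the difference between the 2 responses was -1.06 (SE 0.15). Without DMSO replicate 1 the log2 fold change was 0.31 for THP-1 cells and -0.80 for U-937 cells. Over all alternatives the THP-1 value lay at 0.30 to 0.38 and the U-937 value at -0.80 to -0.62. The gene overlaps antisense genes on the opposite strand, ITFG2-AS1 among them, and the sources used here do not say whether the counting used strand.

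**Figure D1:**
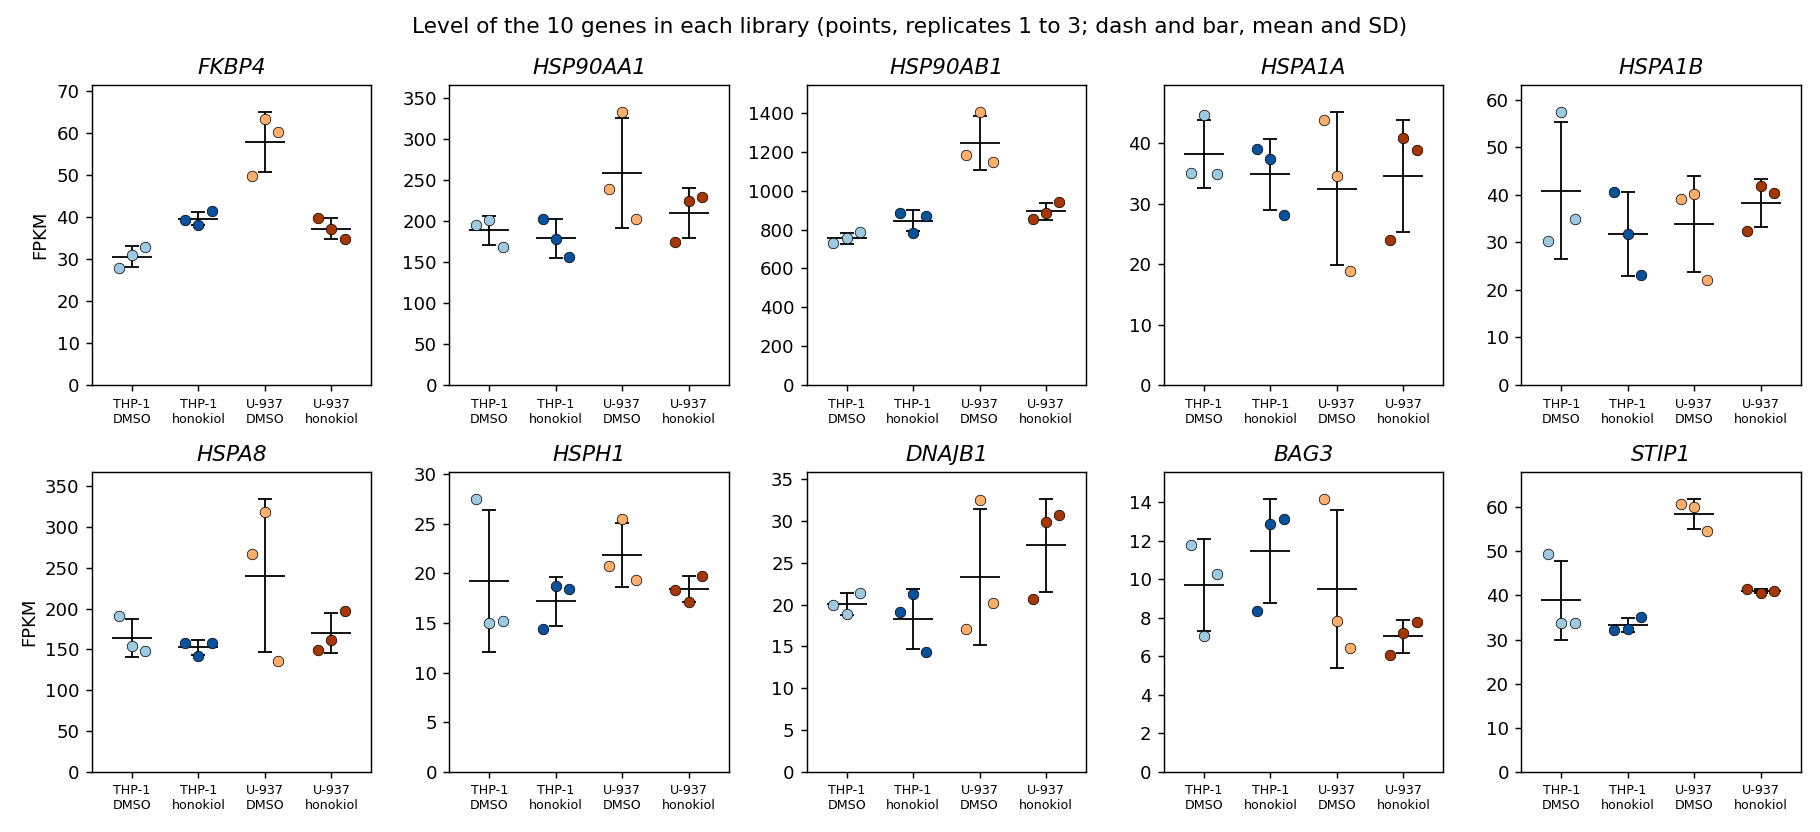
FPKM (y axis, from 0) of each of the 10 genes in the 12 libraries, by line and treatment (x axis). Points are libraries, dashes are means and bars are SD (n = 3). FKBP4 lies at 38.1 to 41.4 FPKM with honokiol in THP-1 against 27.9 to 32.8 FPKM with DMSO, and at 34.8 to 39.8 FPKM against 49.8 to 63.5 FPKM in U-937.

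FKBP5, the paralog of FKBP4 that also binds HSP90 in receptor complexes, did not pass the test in either line, with or without DMSO replicate 1 (log2 fold change without it -0.24 in THP-1, -0.12 in U-937). Its level was 23.8 ± 2.50 FPKM with DMSO and 21.1 ± 2.02 FPKM with honokiol in THP-1 (log2 fold change -0.23, adjusted p = 0.487), and 65.1 ± 1.87 and 63.6 ± 11.3 FPKM in U-937 (-0.13, adjusted p = 0.720). The difference between its 2 responses was 0.09 on the log2 scale (adjusted p = 0.947). In THP-1 the ratio of FKBP4 to FKBP5 was 1.29 ± 0.137 in DMSO libraries and 1.89 ± 0.142 in honokiol libraries, and in U-937 it was 0.887 ± 0.0857 and 0.596 ± 0.0875. FKBP4 was thus the more abundant of the pair per length in THP-1 and the less abundant in U-937, under both treatments. FKBP5 itself was lower in THP-1 than in U-937 cells with DMSO (log2 difference -1.41, adjusted p = 6.31e-06).

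NR3C1, the glucocorticoid receptor and a client of HSP90 with FKBP4, did not pass the test for honokiol in either line. It was at 9.99 ± 1.49 FPKM with DMSO and 9.11 ± 0.682 FPKM with honokiol in THP-1 (log2 fold change -0.18, adjusted p = 0.573). In U-937 it was at 6.30 ± 0.417 and 7.24 ± 0.656 FPKM (log2 fold change 0.11, adjusted p = 0.728). Without DMSO replicate 1 the values were -0.26 for THP-1 and 0.14 for U-937. With DMSO it was higher in THP-1 than in U-937 cells (log2 difference 0.70, adjusted p = 0.000566).

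HSP90AB1, the constitutive HSP90, was the most abundant of the 10 genes in every group. Its level in THP-1 cells was 729, 756 and 786 FPKM with DMSO and 883, 783 and 870.2 FPKM with honokiol, and the groups overlapped. In U-937 cells it was 1184, 1404 and 1148 FPKM with DMSO and 856, 885 and 942 FPKM with honokiol, and every honokiol library lay below every DMSO library. The log2 fold change was 0.10 (SE 0.14, adjusted p = 0.767) in THP-1 and -0.57 (SE 0.15) in U-937, where the unadjusted p was 0.00489 and the adjusted p 0.147. The difference between the responses was -0.68 (SE 0.18, unadjusted p = 0.00267, adjusted p = 0.294). Neither passed the adjusted threshold by edgeR, while DESeq2 called both (adjusted p = 0.0116 in U-937 and 0.0108 for the difference). Without DMSO replicate 1 the THP-1 value was 0.12 and the U-937 value -0.58, and with any 1 of the 6 libraries left out the U-937 value lay between -0.65 and -0.49.

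HSP90AA1, the stress-inducible HSP90, came next in level, beside HSPA8. It was at 195, 201 and 169 FPKM with DMSO and 203, 178 and 155 FPKM with honokiol in THP-1 cells. In U-937 cells it was at 239, 333 and 203 FPKM with DMSO and 175, 225 and 229 FPKM with honokiol. The groups overlapped in both lines, with log2 fold changes of -0.13 (SE 0.17, adjusted p = 0.750) and -0.39 (SE 0.21, adjusted p = 0.398). Without DMSO replicate 1 they were -0.06 and -0.42, and over all alternatives the THP-1 value lay between -0.24 and -0.03 and the U-937 value between -0.57 (without DMSO replicate 3) and -0.18 (without DMSO replicate 2). In THP-1 the ratio of HSP90AB1 to HSP90AA1 was 4.05 ± 0.530 in DMSO libraries and 4.78 ± 0.705 in honokiol libraries, and in U-937 it was 4.95 ± 0.719 and 4.31 ± 0.512. HSP90AA1 overlaps WDR20 on the opposite strand.

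A stretch before the most downstream of the 3 HSP90AB1 start sites is shown because it held the most heat shock element pairs among the windows that could be trimmed to end before any exon annotated within them. HSPA8 held as many pairs, in a window that begins inside an exon. A heat shock element is a row of inverted 5-base units, and it was searched as the pairs GAANNTTC and TTCNNGAA, each of which reads the same on both strands. The window ran from 250 bases before to 50 after each start site in the RefSeq promoter table (GRCh38.p14), which matched 9 of the 10 genes with 15 start sites. Of these 15 promoters 8 held a pair, against 13.5% of all 35116 promoters in the table. Pairs were found for 7 of the 9 genes, and HSPH1 and BAG3 had none in this window. In this HSP90AB1 stretch (chr6:44247693-44247865, plus strand), which lies within the span of the gene, pairs began at -165, -160, -112 and -107 from the start site, and neighbouring pairs overlapped by 3 bases. Capitals mark the pairs.
HSP90AB1: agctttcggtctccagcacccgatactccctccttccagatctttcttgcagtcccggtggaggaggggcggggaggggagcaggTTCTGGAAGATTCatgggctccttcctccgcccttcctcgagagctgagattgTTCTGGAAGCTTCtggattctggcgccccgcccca

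**Figure D2:**
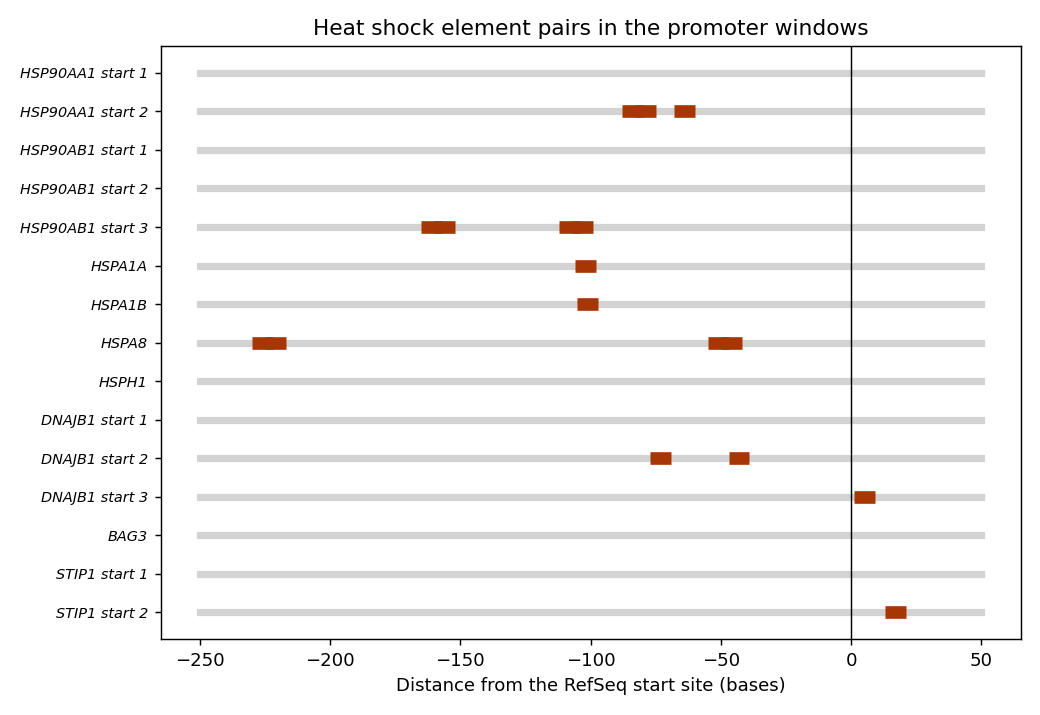
Position of GAANNTTC and TTCNNGAA pairs (dark bars) in the 15 promoter windows of 9 of the genes (grey lines, 1 per RefSeq start site). The x axis is the distance in bases from the start site, and 8 of the 15 windows hold at least 1 pair.

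STIP1, the adaptor between HSP70 and HSP90, was the other gene of the 9 whose groups did not overlap in U-937. In U-937 cells it was at 60.8, 60.1 and 54.5 FPKM with DMSO and at 41.4, 40.5 and 41.1 FPKM with honokiol. In THP-1 cells it was at 49.3, 33.7 and 33.7 FPKM with DMSO and at 32.25, 32.5 and 35.0 FPKM with honokiol, with DMSO replicate 1 far above the other 5 libraries. The log2 fold change in U-937 was -0.60 (SE 0.13), with an unadjusted p of 0.00135 and an adjusted p of 0.0965 by edgeR, while DESeq2 called it (adjusted p = 0.00316). In THP-1 it was -0.30 (SE 0.20, adjusted p = 0.547), and -0.03 without DMSO replicate 1. The difference between the responses was -0.32 (SE 0.25, adjusted p = 0.745), and -0.59 without that library. In U-937 the value without DMSO replicate 1 was -0.55, and the others with 1 library left out reached -0.69.

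The inducible HSP70 genes HSPA1A and HSPA1B, neighbours on chromosome 6, showed no separation of the groups. HSPA1A was at 35.05, 44.7 and 34.95 FPKM with DMSO and 39.05, 37.4 and 28.2 FPKM with honokiol in THP-1 cells. U-937 cells held 43.9, 34.65 and 18.9 FPKM with DMSO and 24.0, 40.9 and 38.9 FPKM with honokiol. Both DMSO and honokiol libraries of U-937 thus spanned more than the difference between their means. The log2 fold change of HSPA1A was -0.18 (SE 0.17, adjusted p = 0.664) in THP-1 and -0.02 (SE 0.34, adjusted p = 0.987) in U-937, the latter above 0 with upper-quartile scaling (0.00330). Without DMSO replicate 1 these values were -0.20 and 0.30. HSPA1B was at 30.4, 57.4 and 34.85 FPKM with DMSO and 40.6, 31.7 and 23.1 FPKM with honokiol in THP-1. In U-937 it was at 39.2, 40.3 and 22.15 FPKM with DMSO and 32.5, 41.95 and 40.4 FPKM with honokiol. Its log2 fold change was -0.41 (SE 0.27, adjusted p = 0.543) in THP-1 and 0.08 (SE 0.25, adjusted p = 0.911) in U-937, or -0.55 and 0.22 without DMSO replicate 1.

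Reads cannot always be assigned to one of this pair. Of all 100-base stretches in the longest coding transcript, 69.9% of those of HSPA1A also occurred in HSPA1B, so the split between them is uncertain. HSPA1B also overlaps another gene, AL671762, on its own strand. The summed level of HSPA1A and HSPA1B was 79.1 ± 20.0 FPKM with DMSO and 66.7 ± 14.3 FPKM with honokiol in THP-1. In U-937 it was 66.4 ± 22.3 and 72.9 ± 14.3 FPKM. The summed counts gave log2 fold changes of -0.30 (SE 0.22, adjusted p = 0.575) and 0.03 (SE 0.29, adjusted p = 0.970). HSP90AA1 and HSP90AB1 shared 2.14% and 1.59% of such stretches with other genes, pseudogenes among them, and the other 6 genes shared none. The likeness of the pair reached into their promoters, of which 235 of 251 aligned positions (93.6%) were identical in the 250 bases before the start site. The parts before any annotated exon are printed for that comparison, with the single heat shock element pair of each in capitals, HSPA1A from chr6:31815293-31815463 and HSPA1B from chr6:31827488-31827734, both on the plus strand.
HSPA1A: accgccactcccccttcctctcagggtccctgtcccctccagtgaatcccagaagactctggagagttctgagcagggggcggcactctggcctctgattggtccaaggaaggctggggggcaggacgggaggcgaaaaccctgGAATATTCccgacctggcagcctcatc
HSPA1B: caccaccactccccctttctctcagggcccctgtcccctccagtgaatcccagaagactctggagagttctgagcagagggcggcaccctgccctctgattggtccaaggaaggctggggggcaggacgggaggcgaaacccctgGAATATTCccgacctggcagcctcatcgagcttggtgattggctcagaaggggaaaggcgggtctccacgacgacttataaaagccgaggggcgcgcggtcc

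HSPA8, the constitutive HSP70, was close to HSP90AA1 in level, and their ranges overlapped in every group. It was at 191, 154 and 148 FPKM with DMSO and 158, 142 and 158 FPKM with honokiol in THP-1 cells. U-937 cells held 267, 318 and 136 FPKM with DMSO and 149.7, 162 and 197 FPKM with honokiol. DMSO replicate 3 of U-937 was the lowest of these 6 libraries and the other 2 DMSO libraries the highest. The log2 fold change was -0.17 (SE 0.17, adjusted p = 0.683) in THP-1 and -0.60 (SE 0.31, adjusted p = 0.369) in U-937. Without DMSO replicate 1 these were 0.00421 and -0.49, and the U-937 value was -0.91 without DMSO replicate 3 and -0.37 without DMSO replicate 2. Small nucleolar RNA genes lie within HSPA8 on the same strand.

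The J protein gene DNAJB1 was at 19.9, 18.9 and 21.4 FPKM with DMSO and 19.1, 21.3 and 14.3 FPKM with honokiol in THP-1 cells. In U-937 cells it was at 17.1, 32.5 and 20.2 FPKM with DMSO and 20.7, 29.9 and 30.7 FPKM with honokiol. The groups overlapped in both lines, with log2 fold changes of -0.19 (SE 0.17, adjusted p = 0.653) and 0.14 (SE 0.25, adjusted p = 0.824), or -0.15 and -0.0289 without DMSO replicate 1. DNAJB1 overlaps TECR on the opposite strand. Its promoter is shown as the case of separate pairs, which began at -77 and -47 (chr19:14518421-14518647, minus strand).
DNAJB1: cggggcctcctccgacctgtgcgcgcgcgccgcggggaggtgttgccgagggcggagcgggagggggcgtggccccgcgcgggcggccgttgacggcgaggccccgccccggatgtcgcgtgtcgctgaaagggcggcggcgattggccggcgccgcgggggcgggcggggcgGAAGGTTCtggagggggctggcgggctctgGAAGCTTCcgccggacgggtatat

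HSPH1, an exchange factor of HSP70, was at 27.5, 15.0 and 15.2 FPKM with DMSO and 14.35, 18.8 and 18.4 FPKM with honokiol in THP-1 cells. U-937 cells had 20.7, 25.5 and 19.3 FPKM with DMSO and 18.3, 17.1 and 19.7 FPKM with honokiol. The log2 fold change in THP-1 was -0.24 (SE 0.28, adjusted p = 0.735), and 0.18 without DMSO replicate 1, the highest of the 6 libraries. In U-937 it was -0.34 (SE 0.15, unadjusted p = 0.0535, adjusted p = 0.309), and -0.35 without DMSO replicate 1. BAG3, an exchange factor that also directs proteins to autophagy, was the least abundant of the 10 genes in every group. It was at 11.8, 7.07 and 10.3 FPKM with DMSO and 8.34, 12.9 and 13.15 FPKM with honokiol in THP-1. In U-937 it was at 14.2, 7.84 and 6.44 FPKM with DMSO and 6.09, 7.23 and 7.79 FPKM with honokiol, with DMSO replicate 1 above the other 5 libraries. Its log2 fold change was 0.17 (SE 0.26, adjusted p = 0.803) in THP-1 and -0.54 (SE 0.32, adjusted p = 0.433) in U-937, or 0.39 and -0.09 without DMSO replicate 1.

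In THP-1, 0 of the 9 genes passed an adjusted p under 0.05 by edgeR, where 0.0411% of the 14600 genes tested passed. At an unadjusted p under 0.05, 0 of the 9 passed, where 6.84% of all genes did so higher and 6.22% lower, and DESeq2 called 0 of the 9, where it called 3.46% of all genes. Groups without overlap were found for 0 of the 9, against 13.0% of all genes higher and 7.62% lower with honokiol. The median log2 fold change of the 9 was -0.18 and that of all genes -0.00, and 7 of the 9 were below 0, or 5 of 9 (median -0.03) without DMSO replicate 1.

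In U-937, 0 of the 9 passed the adjusted threshold by edgeR, where 0.0947% of the 13726 genes tested passed, while DESeq2 called 2, HSP90AB1 and STIP1, where it called 5.76% of all genes. The same 2 genes had an unadjusted p under 0.05 by edgeR, both lower, where 8.25% of all genes were higher and 8.44% lower at that level. They were also the 2 of the 9 without overlap, where 16.7% of all genes were higher and 7.50% lower with honokiol without overlap. The median log2 fold change of the 9 was -0.39 and that of all genes 0.02, and 7 of the 9 were below 0 (6 of 9 with upper-quartile scaling). Without DMSO replicate 3, 6 of the 9 had an unadjusted p under 0.05, where 2209 of all 13426 genes tested did, and the median was -0.57. With any other single library left out the count was 2 of the 9, and without DMSO replicate 2 the median was -0.23.

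To compare the responses of the lines, all 12 libraries were fitted together. By edgeR 0 of the 9 passed the adjusted threshold, where 0.111% of the 16283 genes tested passed, while DESeq2 called 1, HSP90AB1, where it called 1.52% of all genes. At an unadjusted p under 0.05 it was again HSP90AB1, with a lower response in U-937 (3 of the 9 without THP-1 DMSO replicate 1 or U-937 DMSO replicate 3, and 2 without U-937 DMSO replicate 2), where 4.82% of all genes had a higher and 4.54% a lower response in U-937. The adjusted p-values of the other 8 genes lay between 0.661 and 0.971. A response of one line that missed the threshold is not shown to differ from that of the other.

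**Figure D3:**
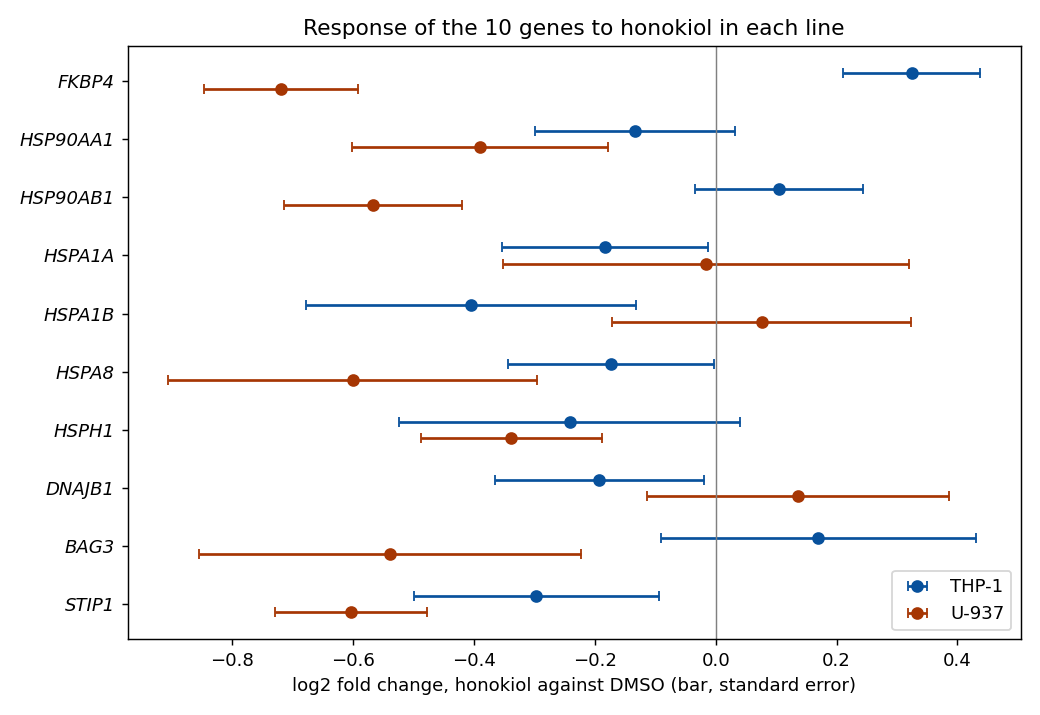
Log2 fold change of honokiol against DMSO (x axis) for each of the 10 genes, with its standard error as a bar, in THP-1 and U-937 cells. FKBP4 stands at 0.32 in THP-1 and -0.72 in U-937, and HSP90AB1 at 0.10 and -0.57.

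With DMSO alone the lines differed in 2 of the 9 genes, both lower in THP-1, where 24.4% of the 16283 genes were lower and 28.5% higher in THP-1. HSP90AB1 was at 757 ± 28.4 FPKM in THP-1 and 1246 ± 139 FPKM in U-937 (log2 difference -0.67, SE 0.13, adjusted p = 0.000825), and the adjusted p stayed under 0.05 in all 24 alternatives. STIP1 was at 38.9 ± 9.04 and 58.5 ± 3.43 FPKM (log2 difference -0.53, SE 0.17, adjusted p = 0.0221). The call of STIP1 was lost without THP-1 DMSO replicate 2 (adjusted p = 0.0995) or 3 (0.0986) and without U-937 DMSO replicate 1 (0.0700) or 2 (0.0508). Without U-937 DMSO replicate 3, HSP90AA1 and HSPA8 also passed, both lower in THP-1 (adjusted p = 0.0296 and 0.00428), which made 4 of the 9. HSPH1 passed without THP-1 DMSO replicate 1 (adjusted p = 0.0179). FKBP4 was lower in THP-1 by a log2 difference of -0.87 (SE 0.11), given without a test. The DMSO groups enter both this comparison and the honokiol responses, so the values are set side by side here and not related to each other.

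The order of levels was similar at its ends in the 4 groups. HSP90AB1 came first without overlap with the next gene in any group, then HSP90AA1 and HSPA8, whose ranges overlapped, and BAG3 came last. FKBP4 ranked 7 of the 10 in THP-1 cells with DMSO, between HSPA1A and DNAJB1 without overlap with either, although its range overlapped that of HSPA1B (30.4 to 57.4 FPKM), which ranked 4. With honokiol it ranked 4 in THP-1, where its range overlapped that of HSPA1A. In U-937 it ranked 5 with DMSO, overlapping STIP1, and 6 with honokiol, overlapping HSPA1B and HSPA1A.

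The genes whose pattern was most like that of FKBP4 were sought by the lower of the 2 Pearson correlations within the lines, over 6 libraries each, on log2(FPKM + 0.5) values of 8908 genes. Both treatments are in these 6 libraries, so a correlation includes the response itself, and it is a description. The 5 nearest were PFDN2, AHCY, CCDC85C, HSP90AB1 and THAP4. PFDN2, a subunit of the prefoldin complex that hands proteins to the chaperonin CCT, had r of 0.921 for THP-1 and 0.918 for U-937. Its level was 81.3 ± 7.36 FPKM with DMSO and 106.8 ± 0.731 FPKM with honokiol in THP-1, and 91.7 ± 12.8 and 74.1 ± 1.44 FPKM in U-937. AHCY, which hydrolyses S-adenosylhomocysteine, had r of 0.917 and 0.914, CCDC85C 0.955 and 0.906, and THAP4 0.894 and 0.936. HSP90AB1 had r of 0.895 and 0.899. STIP1 followed FKBP4 in U-937 (r = 0.894) and ran against it in THP-1 (r = -0.683), where DMSO replicate 1 held the highest STIP1 and the lowest FKBP4 level.

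Other HSP90 co-chaperones, 20 genes such as the kinase adaptor CDC37 and the ATPase activator AHSA1, were all tested. In THP-1 none had an unadjusted p under 0.05, where 6.84% of all genes were higher and 6.22% lower. In U-937 5 did, all lower (NUDC, CDC37, PPP5C, TTC4 and AHSA1), and 19 of the 20 were below 0 (18 with upper-quartile scaling and 16 by limma on log2(FPKM + 0.1)), with a median log2 fold change of -0.19. Of all genes 8.44% were lower at that level in U-937. Of all 13726 genes tested there 6595 were below 0, with a median of 0.02. The 5 became 3 without U-937 DMSO replicate 2, with a replicate block and by limma, and 7 without DMSO replicate 1. None passed the adjusted threshold by edgeR in either line or for the difference, and DESeq2 called 3 in U-937 (5.76% of all genes). With all 12 libraries in 1 fit edgeR called NUDC and CDC37 in U-937 (adjusted p = 0.0335 and 0.0416), and 1.27% of all genes. NUDC was at 125, 116 and 111 FPKM with DMSO and 82.7, 86.8 and 74.5 FPKM with honokiol in U-937 (log2 fold change -0.62, SE 0.13, adjusted p = 0.0995). CDC37 was at 49.3 ± 2.84 and 35.5 ± 4.06 FPKM there (-0.57, SE 0.14, adjusted p = 0.131), against 33.2 ± 2.94 and 32.4 ± 0.603 FPKM in THP-1. Neither gene's groups overlapped in U-937. For the difference between the lines 3 of the 20 had an unadjusted p under 0.05, all lower in U-937. At that level 4.54% of all genes had a lower and 4.82% a higher response in U-937. CDC37 stood at -0.49 (adjusted p = 0.392) and NUDC at -0.42 (adjusted p = 0.476). The count of 3 was 1 without THP-1 honokiol replicate 1 or U-937 honokiol replicate 3. In THP-1 the smallest p belonged to PPP5C, a phosphatase of HSP90 complexes (log2 fold change -0.29, adjusted p = 0.403). With DMSO 12 of the 20 differed between the lines, 3 higher and 9 lower in THP-1, where 28.5% of all genes were higher and 24.4% lower, and NUDC had the smallest p (-1.31, adjusted p = 3.80e-06).

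The CCT chaperonin, a ring of 8 subunits that folds actin and tubulin, was measured for all 8. In U-937 all 8 subunits were below 0 (7 of 8 by limma on log2(FPKM + 0.1)), with a median log2 fold change of -0.40. Of all 13726 genes tested 6595 were below 0, with a median of 0.02. Of the 8 subunits 6 had an unadjusted p under 0.05, where 8.44% of all genes were lower. That count was 7 without DMSO replicate 1, 2 without DMSO replicate 2 or 3, 3 without honokiol replicate 1 or 3 and 4 without honokiol replicate 2, and it was 2 with a replicate block and 1 by limma. None passed the adjusted threshold by edgeR, and DESeq2 called 1 (5.76% of all genes). CCT6A was at 99.5, 118 and 101 FPKM with DMSO and 82.0, 74.8 and 82.1 FPKM with honokiol (log2 fold change -0.50, SE 0.13, adjusted p = 0.147). CCT7 was at 106 ± 16.0 and 84.1 ± 1.79 FPKM (-0.41, SE 0.13, adjusted p = 0.193). The honokiol libraries of both lay below the DMSO libraries. In THP-1 4 subunits were above and 4 below 0, with a median of 0.01 (-0.00 with RLE size factors), and TCP1 had the smallest p (0.24, adjusted p = 0.464), before CCT4 (0.22, adjusted p = 0.520). For the difference between the lines 3 of the 8 had an unadjusted p under 0.05, all lower in U-937, where 4.54% of all genes were. CCT6A was at -0.56 (adjusted p = 0.317) and CCT4 at -0.67 (adjusted p = 0.344). The count was 7 without U-937 DMSO replicate 1, and 2 without U-937 DMSO replicate 2 or 3, with a replicate block or by limma. With DMSO 5 of the 8 were lower in THP-1, where 24.4% of all genes were, among them CCT4 (-1.29, adjusted p = 1.61e-05) and CCT7 (-0.83, adjusted p = 4.69e-05).

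**Figure D4:**
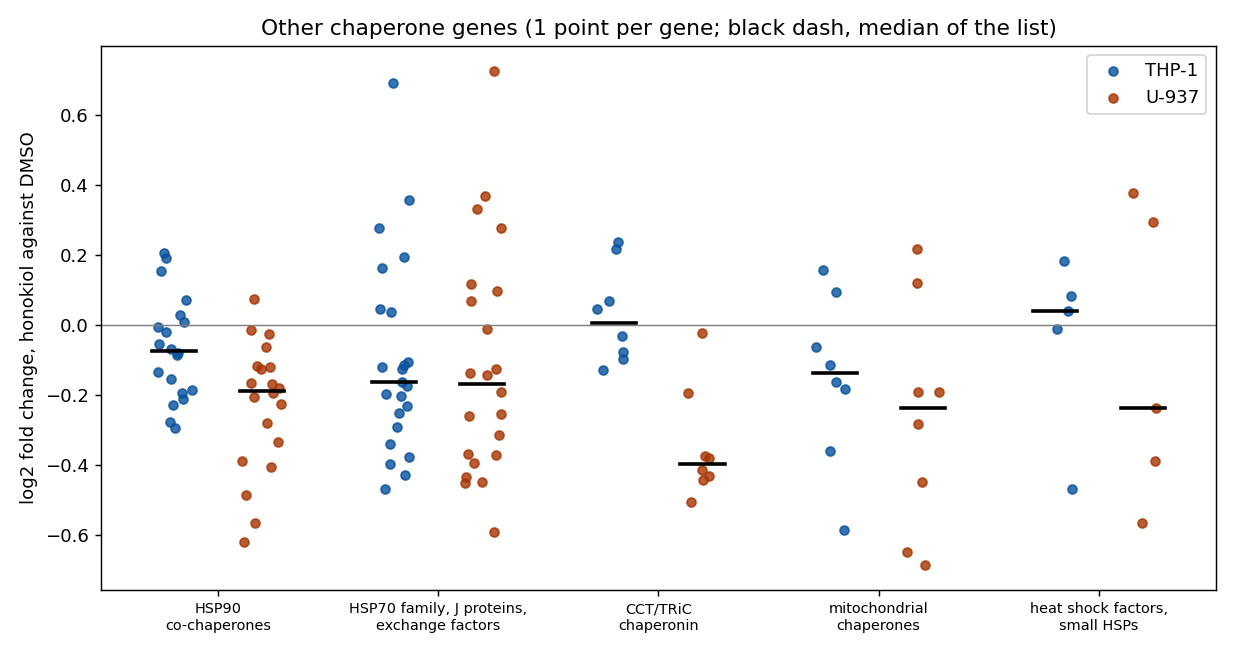
Log2 fold change of honokiol against DMSO (y axis) for the genes of 5 chaperone groups (x axis) in THP-1 and U-937 cells. Each point is a gene and black dashes are medians. The CCT subunits have a median of 0.01 for THP-1 (-0.00 with RLE size factors) and -0.40 for U-937, and co-chaperones of HSP90 a median of -0.07 and -0.19.

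Among 8 mitochondrial chaperones 1 had an unadjusted p under 0.05 in THP-1 and 3 in U-937, all lower, where 6.22% and 8.44% of all genes were lower. None passed the adjusted threshold by edgeR within a line, while DESeq2 called 2 in U-937 (5.76% of all genes), and with all 12 libraries in 1 fit edgeR called TRAP1 (adjusted p = 0.0447). With 1 library left out the THP-1 count was 0 or 1 (0 without DMSO replicate 2 or honokiol replicate 3) and the U-937 count 2 to 4. HSPE1, the lid of the mitochondrial chaperonin, was at 102, 108 and 99.5 FPKM with DMSO and 69.35, 66.7 and 74.2 FPKM with honokiol in U-937 (log2 fold change -0.65, SE 0.12, adjusted p = 0.0798). It was the gene of this group that passed the unadjusted threshold in THP-1 too (-0.58, SE 0.19, adjusted p = 0.290), where the groups overlapped. TRAP1, the mitochondrial HSP90, was at 39.5 ± 5.12 and 26.1 ± 3.76 FPKM in U-937 (-0.69, SE 0.15, adjusted p = 0.0995), against 27.7 ± 2.70 and 26.7 ± 2.33 FPKM in THP-1. The difference between its responses was -0.58 (adjusted p = 0.400). HSPD1, the barrel of the chaperonin, was at 287 ± 77.8 and 222 ± 4.85 FPKM in U-937. The groups overlapped there (log2 fold change -0.45, adjusted p = 0.289). In THP-1 it was at 206 ± 14.6 and 239 ± 5.36 FPKM, without overlap (0.16, adjusted p = 0.621). The difference between the HSPD1 responses was -0.62 (adjusted p = 0.424). With DMSO 5 of the 8 were lower in THP-1, where 24.4% of all genes were, CLPB and DNAJA3 among them (-0.78 and -0.67, adjusted p = 0.00135 and 0.00168). The count was 2 without THP-1 DMSO replicate 2 or U-937 DMSO replicate 3, 3 without THP-1 DMSO replicate 1 or 3, THP-1 honokiol replicate 1, U-937 DMSO replicate 2 or any U-937 honokiol replicate, and 3 with a replicate block, RLE size factors, no filter or limma.

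Of 23 other genes of the cytosolic HSP70 system 4 had an unadjusted p under 0.05 in THP-1, 1 higher and 3 lower, and of the 22 tested in U-937 5 did, 2 higher and 3 lower. At that level 6.84% of all genes were higher and 6.22% lower in THP-1, and 8.25% higher and 8.44% lower in U-937, and none of the list passed the adjusted threshold by edgeR. DESeq2 called none of them either. With 1 library left out the count in THP-1 ranged from 0 (without honokiol replicate 3) to 5, and in U-937 from 1 (without DMSO replicate 2) to 5. DNAJA1 and DNAJA2, J proteins of HSP70, pointed opposite ways in THP-1, DNAJA1 at 57.4 ± 1.21 and 44.3 ± 5.76 FPKM (log2 fold change -0.43, adjusted p = 0.293) and DNAJA2 at 10.6 ± 0.737 and 14.1 ± 1.08 FPKM (0.36, adjusted p = 0.301). In U-937 the smallest p-values were those of HSPA4 (-0.40, adjusted p = 0.234) and DNAJC2 (-0.43, adjusted p = 0.237). BAG1, another exchange factor, had the smallest p for the difference between the lines (0.53, adjusted p = 0.365), followed by DNAJA2 (-0.51, adjusted p = 0.399). With DMSO 13 of the 23 differed between the lines, 8 higher and 5 lower in THP-1, where 28.5% of all genes were higher and 24.4% lower. HSPA2 was 1 of the 8 but reached the filter in 1 line only, and the others included HSPA4L at 1.79 and BAG1 at 1.17 (adjusted p = 5.96e-06 and 8.32e-06).

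HSF1, the factor that acts on the heat shock element, was at 9.88 ± 1.09 and 10.2 ± 0.844 FPKM in THP-1 and at 14.8 ± 2.36 and 12.1 ± 1.32 FPKM in U-937. Its log2 fold change in U-937 was -0.39 (SE 0.16, unadjusted p = 0.0441, adjusted p = 0.286), with overlapping groups. HSPB1, a small heat shock protein, was at 135, 99.3 and 108 FPKM with DMSO and 88.0, 78.9 and 92.35 FPKM with honokiol in THP-1 (-0.47, SE 0.18, adjusted p = 0.334). In U-937 it ranged from 130.41 to 306.96 FPKM with DMSO and from 135.96 to 225.32 FPKM with honokiol. Of 8 heat shock factors and small heat shock proteins 5 passed the filter in each line, and none passed the adjusted threshold by edgeR or DESeq2, for honokiol or for the difference. The smallest p-values after these were those of HSF2 in THP-1 (0.18, adjusted p = 0.621) and of HSBP1, which binds HSF1, in U-937 (0.30, adjusted p = 0.330). With DMSO 5 of the 6 tested differed between the lines, where 28.5% of all genes were higher and 24.4% lower in THP-1. HSF4 and SERPINH1 reached the filter only in the line where they were higher, so their calls are partly built in by the filter. Of the other 4, 1 was higher and 2 were lower in THP-1. The count of 5 was 3 without THP-1 DMSO replicate 2 or 3 or U-937 DMSO replicate 1. SERPINH1, a collagen chaperone of the endoplasmic reticulum, stood at 16.8 ± 2.89 FPKM in THP-1 and 0.163 ± 0.111 FPKM in U-937. HSF2 was at 5.59 ± 0.220 and 2.22 ± 0.711 FPKM (log2 difference 1.39, adjusted p = 0.000214).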

How the data were processed

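Poly(A) mRNA libraries of both lines were sequenced by the authors. Their processing notes name HISAT2 2.0, StringTie 1.3.0, Bowtie 0.12.2 and the mouse build mm8, without roles, while the deposited gene IDs are human. The span of each of the 10 genes overlaps that of the same gene in GENCODE 29 (GRCh38), on the same strand. Of 35762 genes found in GENCODE 29, 22472 had the same start and end. Strand use in counting is not given in the sources used here. The authors deposited, per gene and library, FPKM values scaled to length and depth, and estimated counts, whole numbers that are not normalized. Since a fragment was mostly worth 4 counts, division by 4 was an alternative.

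A gene was tested where 3 or more libraries reached 0.5 FPKM, with edgeR 4.0.16 (R 4.3.3, TMM, quasi-likelihood test, Benjamini-Hochberg adjustment, threshold 0.05), within a line on 6 libraries and otherwise in 1 fit of 12. The fit was also run on simulated counts with a common spread and no outlying library, so that run does not cover features such as DMSO replicate 1. Named genes are the 10 members, in each list the 2 of smallest p per comparison plus FKBP5 and NR3C1, and the 5 genes most like FKBP4. TTC4, AHSA1, CD3E, COL3A1, EPCAM, PECAM1 and MPO were named beside counts after their values were seen. Of the list of HSP90 client receptors only NR3C1 is given, and the rest is not reported here. The members and lists were chosen with earlier results of these data known. Alternatives used DESeq2 1.42.0, limma 3.58.1 on log2(FPKM + 0.1, 0.5 or 1), RLE or upper-quartile scaling, other filters, a replicate block, removal of mitochondrial genes and each replicate left out.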

Additional observations from a re-analysis of the deposited data

Results flagged for a closer look

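The FKBP4 response differed in direction between the lines, with a log2 difference of -1.06 (U-937 minus THP-1). All 3 honokiol libraries lay above the DMSO libraries in THP-1 and below them in U-937. The difference was not tested, because it was what chose the gene. Dose and line cannot be told apart in it. Without replicate 1 of both DMSO groups, an alternative chosen after seeing the data, the difference was -1.11. The part of the mitochondrial share of DMSO replicate 1 was not tested.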

How the results depend on the processing

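Over 848 values under alternatives, 812 were unchanged, 25 changed sign, 7 passed the threshold and 4 lost it. Unchanged means the same direction and side of the threshold. For FKBP4, which has no p, it means the same sign and a move smaller than the SD between libraries. For the sum of HSPA1A and HSPA1B it means the same sign only. FKBP4 kept its sign in all alternatives of each comparison. The alternatives reuse the libraries that chose the gene, so this is description only. With DESeq2 the count of genes called was 2 in U-937 and 1 for the difference, and 0 in THP-1. With DMSO alone the count ranged from 1 to 4 when a replicate was left out, and it was 3 without replicate 1 of both DMSO groups, an alternative chosen after seeing the data. HSPA1A in U-937 (-0.02) turned to 0.0518 with a replicate block, 0.00330 with upper-quartile scaling, 0.14, 0.13 and 0.13 by limma with 0.1, 0.5 and 1 added to FPKM, and 0.0327 when its counts were summed with those of HSPA1B, also chosen after seeing the data.

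Leaving out 1 replicate changed the sign of uncalled values. In THP-1 HSPA8 ranged from -0.27 to 0.00421, HSPH1 from -0.42 to 0.18 and BAG3 from -0.0325 to 0.39. In U-937 HSPA1A ranged from -0.32 to 0.30, HSPA1B from -0.18 to 0.22 and DNAJB1 from -0.0289 to 0.44. For the difference HSPA1A ranged from -0.14 to 0.48 and HSPH1 from -0.53 to 0.0637. With DMSO alone HSPA1A ranged from -0.0291 to 0.59, HSPH1 from -0.53 to 0.0691, BAG3 from -0.16 to 0.54 and DNAJB1 from -0.31 to 0.15. The causes were not tested.

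No pairing by replicate number was visible in the deviations of the libraries from their group means. Same-numbered libraries of a line had correlations of -0.155 to 0.0936 in THP-1 and -0.121 to -0.104 in U-937. Differently numbered ones had -0.0712 to 0.198 in THP-1 and -0.0834 to 0.188 in U-937. With a replicate block 0, 0 and 0 of the 9 genes were called in THP-1, in U-937 and for the difference, and 2 between the lines with DMSO. With 3 libraries a group, differences within the spread could not be seen.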
